A study of Mus musculus with 72 samples.

Results

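Of 17857 reporter integrations listed for 6 pools of mouse embryonic stem cells, 976 (5.47%) lay on chromosome 10, and these are described here. They were chosen by chromosome alone, so no measured output entered the choice. The assay, TRIP, reads the same reporter gene at many places in the genome by giving each copy a random DNA barcode. Each reporter carried the mouse PGK promoter (mPGK), the promoter of a housekeeping gene of glycolysis, and was inserted by the piggyBac transposon.

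The pools, named mPGK-A, mPGK-B, mPGK-C, mPGK-D, mPGK-E and mPGK-F, were all made from EBRTcH3 cells, an embryonic stem cell line with a tetracycline-controlled transactivator at ROSA26, kept in medium with leukemia inhibitory factor and the inhibitors PD0325901 and CHIR99021. No pool differed from another by genotype or treatment. Cells with low eGFP signal were sorted after transfection and grown for 5 days. Small pools were then taken and grown for 7 days, and each was divided into 2 cultures that were grown apart for 7 more days and serve as technical replicates. A pool is a mixture of a limited number of clones, and the listed integrations come from the low eGFP sort only. Reads of each barcode were counted in the RNA and in the genomic DNA of each culture, and the place of each barcode was mapped by inverse PCR.

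A gene inserted into a chromosome takes on part of its activity from the surrounding chromatin, which is called a position effect. Since promoter and coding sequence are the same in every copy, differences in RNA per DNA copy between integrations come with the place of insertion, the clone that carries it and counting error. The piggyBac transposon inserts at TTAA sites and is known to favour open, transcribed chromatin, so the spacing of integrations is itself uneven. Broad domains of active and repressed chromatin are a known feature of mammalian chromosomes.

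Throughout, the level of an integration is the log2 ratio of its share of RNA reads to its share of DNA reads, averaged over both cultures, minus the median over all integrations of the same pool. A level of 1 is thus a doubling over the median integration of the pool. Positions are those of the mouse build mm9 as listed. No gene annotation of that build was at hand, so genes, exons and introns at these positions are not analysed here.

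The barcodes of the integrations at the ends of the range are given first, because a barcode is the only sequence that tells otherwise identical reporters of the same pool apart. The 5 highest levels on chromosome 10 belonged to the following integrations, with pool, position and strand before the barcode.
mPGK-D at 62352461, minus strand: ttctagtatttgtctt
mPGK-E at 11001871, minus strand: tcctctttaagaagat
mPGK-D at 23507936, minus strand: atcgacttgagaaatg
mPGK-A at 107735727, minus strand: actcaccatcggtatt
mPGK-C at 107135016, minus strand: ggcatttgttggagtg

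The 5 lowest integrations with at least 1 RNA read were these.
mPGK-A at 43188054, minus strand: aaacgcggaccgatta
mPGK-F at 20877377, minus strand: tgttgagctacttgac
mPGK-D at 22607675, minus strand: gttccgacatagcaag
mPGK-F at 45845218, plus strand: cttagaaacgctgaga
mPGK-D at 5071914, plus strand: gacaaattactacttc

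The integrations spanned 125 Mb, from position 3223986 to 128271474, at 7.81 per Mb. They numbered 154 in mPGK-A, 185 in mPGK-B, 128 in mPGK-C, 161 in mPGK-D, 156 in mPGK-E and 192 in mPGK-F, a mean of 163 ± 23.2 (SD, n = 6 pools). No position was listed in more than 1 pool, so every pool sampled the chromosome at its own sites. The median distance to the next integration was 58.7 kb, and 473 integrations were on the plus strand and 503 on the minus strand. Over the listed barcodes, DNA reads summed to between 3386477 and 3693449 per pool and culture and RNA reads to between 2880244 and 3508366. The chromosome 10 share of these was 188352 to 236119 DNA reads and 122232 to 220162 RNA reads, and its median integration had 1870.5 DNA and 616 RNA reads over both cultures.

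In level, chromosome 10 was close to the rest of the genome, while its integrations differed widely among themselves. The mean level was -0.18 with an SD of 2.39 over 976 integrations. From the 5th percentile (-4.19) to the 95th (3.27) levels covered a 176-fold range, and the interquartile range was 8.23-fold. The error SD of a single culture was 0.785 and the Spearman correlation between cultures was 0.943 over the 976 integrations, so levels differed between sites by more than the error of a culture. In 4 of 6 pools the mean of chromosome 10 lay above that of the other chromosomes, and the average difference was 0.01 ± 0.08 (SE, n = 6 pools, exact two-sided sign-flip permutation test, p = 0.97, adjusted p = 0.97 over 5 such tests). The pool differences ran from -0.36 in mPGK-E to 0.19 in mPGK-C, so the direction was not shared between pools.

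Integrations per Mb were 1.12-fold those of the other chromosomes on average, and higher in 6 of 6 pools (0.16 ± 0.06 SE on the log2 scale). The raw p of 0.031 is the smallest that an exact sign-flip permutation test over 6 pools can give, and the adjusted p of 0.078 did not pass 0.05. The pools differed in this value, from 0.01 in mPGK-E to 0.36 in mPGK-F on the log2 scale.

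Many single integrations departed from the median of their pool by more than the spread between cultures. In a test of RNA against DNA reads for each barcode (edgeR quasi-likelihood test, Benjamini-Hochberg adjustment over all 17857 integrations), 368 of 976 integrations (37.7%) were called higher, that is above the median RNA to DNA ratio of the pool, against 36.9% of all integrations tested. Another 337 (34.5%) were lower, against 33.7% of all integrations tested, and 271 passed in neither direction. Both shares on chromosome 10 were thus near the share over the whole genome. When the ratios were left at TMM scaling and not moved to the pool median, 327 were higher and 375 lower, and the balance between directions thus turned with the scaling. By pool, the share called higher was largest in mPGK-D (71 higher and 50 lower of 161) and smallest in mPGK-E (47 higher and 60 lower of 156). These cultures were split from a shared pool late, so the p-values measure the spread between cultures of a pool and not between pools.

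At the top of the range, the mPGK-D integration at 62352461 had 654 and 986 DNA reads in its 2 cultures and gave 13079 and 15017 RNA reads, a level of 5.82 or 56.5-fold above its pool median. The mPGK-E integration at 11001871 gave 7605 and 8086 RNA reads against 486 and 376 DNA reads, a level of 5.74. Its nearest neighbours, 36.1 kb before and 274 kb after, had levels of 0.79 and 0.15, and the first of them was itself called higher (edgeR, adjusted p = 0.035). The integrations at 23507936 (4.97), 107735727 (4.69) and 107135016 (4.67) completed the 5 highest, and all 5 were called higher (edgeR quasi-likelihood test, largest adjusted p = 1.4e-06). Integrations more than 16-fold above the median of their pool numbered 27 (2.77%, against 2.45% on the other chromosomes), of which mPGK-A held 10 and mPGK-F 1.

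At the bottom, the mPGK-A integration at 43188054 was a large clone with hardly any RNA: 9170 and 9143 DNA reads stood against 6 and 0 RNA reads. Its level was -10.8, a value that the pseudocount of 0.5 reads sets in the culture without reads. Integrations on either side of it were not low, at 0.36 in mPGK-A 150 kb before and 1.15 in mPGK-F 9.74 kb after. The mPGK-F integration at 20877377 was similar, with 9 and 0 RNA reads against 1998 and 1094 DNA reads, while the neighbours 47.2 kb before and 14.9 kb after had levels of 2.86 and 2.45. The cultures of the mPGK-D integration at 22607675 and of the mPGK-F integration at 45845218 differed, with 0 and 23 RNA reads in the first case and 0 and 12 in the second. At 5071914 in mPGK-D, 17 RNA reads were counted in the first culture and 0 in the second. Integrations more than 16-fold below the median numbered 57 (5.84%, against 6.52% elsewhere), and 17 of them were in mPGK-D.

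No RNA read was counted in either culture at 11 integrations (1.13%, against 1.02% on the other chromosomes), 4 each in mPGK-B and mPGK-E, 2 in mPGK-D and 1 in mPGK-F. All 11 were called lower by the edgeR test. The one with the most DNA reads, mPGK-D at 91676619 on the minus strand, had 1923 and 1605 DNA reads. A floor of 3 RNA reads over both cultures puts it at least 365-fold below its pool median, and the next, mPGK-B at 17604604 with 1355 and 1207 DNA reads, at least 316-fold below. With fewer DNA reads the limit is looser, down to at least 34.1-fold for the mPGK-E integration at 33155336. PCR reads do not each stand for a separate molecule, and these floors therefore cover counting error alone.

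No difference in level between strands was detected. The mean on the plus strand minus that on the minus strand was -0.01 ± 0.18 (SE, n = 6 pools, exact two-sided sign-flip permutation test, p = 0.97, adjusted p = 0.97). It was above 0 in 3 pools and below 0 in 3 pools, and ran from -0.77 in mPGK-E to 0.51 in mPGK-F. The 5 highest integrations were nevertheless all on the minus strand, which was noticed after their values were seen.

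**Figure D1:**
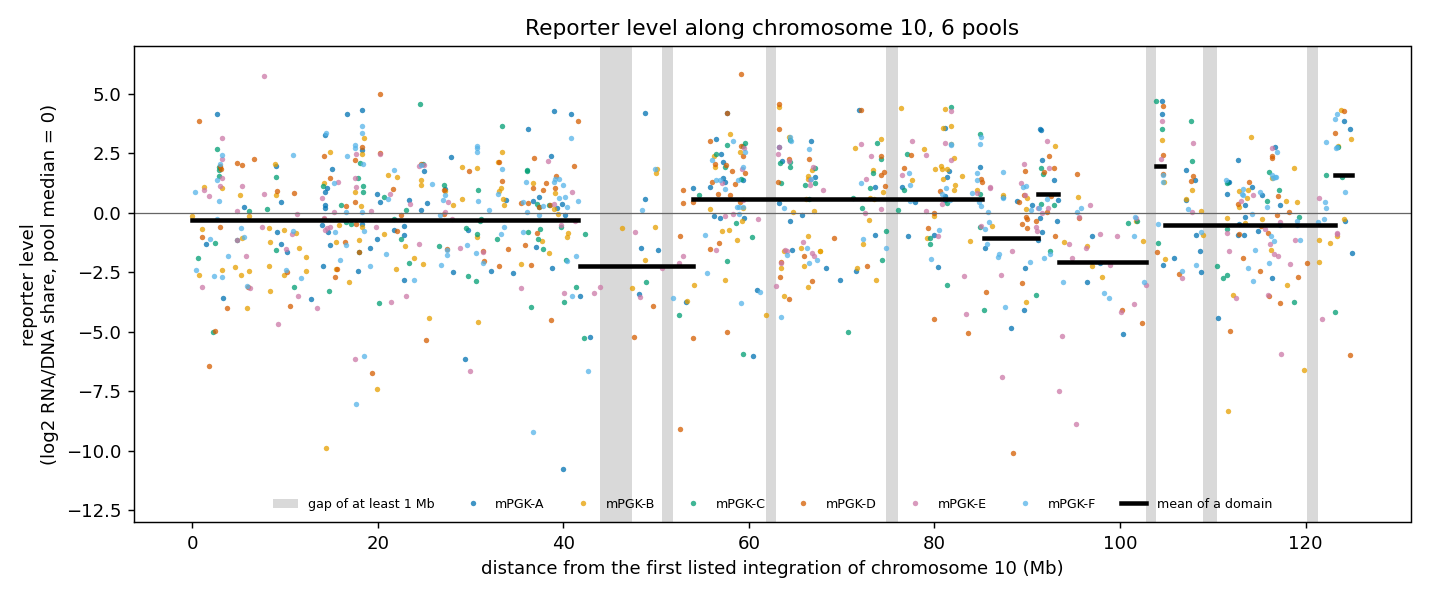
Level of each of the 976 integrations (log2, y axis) against its distance from the first listed integration (Mb, x axis), coloured by pool, with grey bands for the 8 gaps of at least 1 Mb and black bars for the means of the 9 domains. High and low integrations are interleaved along most of the chromosome, and the low bars at -2.24 and -2.07 lie over thinly hit stretches.

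Along the chromosome, a least-squares segmentation of the levels in order of position gave 9 domains, 4 above and 5 below the chromosome mean. It places a boundary where the drop in squared error exceeds a penalty of 2 times ln(n) times the variance between neighbouring integrations. Domain sizes ran from 0.823 to 41.6 Mb with a median of 9.37 Mb, and the number per 100 integrations was 0.922 against 1.08 on the other chromosomes. The domains took up 12.1% of the variance of the levels, so most of the variation lay between integrations of the same domain. The domain means and the calls inside domains are descriptions, since the boundaries were placed on levels from the same reads. Over all integrations tested, 36.9% were called higher and 33.7% lower.

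The first domain, from 3223986 to 44842807, was the longest and held 381 integrations. Its mean was -0.32, close to the chromosome mean, with pool means between -0.64 in mPGK-B and -0.13 in mPGK-A. Calls were balanced there, at 133 higher (34.9%) and 141 lower (37.0%), near the shares over all integrations. This stretch also held the 35 integrations of the densest 2 Mb window of the chromosome, from 20000001 to 22000000.

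A low domain of 37 integrations followed, from 45060161 to 57231513. Its mean was -2.24, equal to 4.71-fold below the pool medians, and 25 of its integrations (67.6%) were called lower and 6 (16.2%) higher. All 6 pools lay below 0, from -3.34 in mPGK-C (4 integrations) to -0.95 in mPGK-B (7 integrations). It was also the most thinly hit of the 9, at 3.04 integrations per Mb. Its integrations were not uniformly low: 8 of 37 lay above their pool median, and the highest, in mPGK-A, reached 4.17.

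The third domain, from 57237778 to 88349891, was long, densely hit and moderately high. It had 269 integrations at 8.65 per Mb, a mean of 0.56, and 140 (52.0%) called higher against 67 (24.9%) called lower. The pools agreed closely there, with means from 0.47 in mPGK-F to 0.71 in mPGK-C (SD of the 6 pool means, 0.10). Even so, its integrations reached from -6.00 to 5.82.

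Between 88530978 and 106059788 a low, a high and a low domain alternated. The first of these, up to 94364481, had 49 integrations with a mean of -1.06 and a median of -0.48, and its pool means were all below 0 (from -3.78 in mPGK-C, on 2 integrations, to -0.56 in mPGK-B). Of these 49, 17 (34.7%) were called lower and 11 (22.4%) higher, and 2 had no RNA reads, so the pseudocount set their levels. With the penalty at 1 times ln(n), the edge at 94364481 was not drawn, and a single stretch from 92170146 to 96500926 averaged 0.19. The next domain, from 94388514 to 96500926, had 29 integrations with a mean of 0.80, and 5 of 6 pools lay above 0, the exception being mPGK-F at -0.70 on 4 integrations. The last, from 96690513 to 106059788, had 40 integrations at 4.27 per Mb with a mean of -2.07. In this low domain 25 integrations (62.5%) were called lower and 2 (5%) higher, and all 6 pools lay below 0, from -2.77 in mPGK-A to -0.39 in mPGK-C. mPGK-E supplied 15 of its 40 integrations.

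The shortest domain was also the highest and the densest. Between 107135016 and 107958100, 17 integrations at 20.7 per Mb had a mean of 1.95, or 3.87-fold above the pool medians, with 13 (76.5%) called higher and 3 (17.6%) lower. Each of the 6 pools lay above 0, from 0.79 in mPGK-F to 3.05 in mPGK-E, on 2 to 4 integrations a pool. By strand, the mean was 0.62 for its 9 integrations on the plus strand and 3.45 for the others. This split was not tested, and its direction was not the same in all domains.

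The end of the chromosome was made up of a long domain slightly below the pool medians and a short high one. The eighth, from 108117953 to 126337819, had 133 integrations with a mean of -0.53 and pool means from -1.22 in mPGK-E to -0.08 in mPGK-F. The last domain, from 126367375 to the last listed integration at 128271474, had 21 integrations with a mean of 1.56. In it 14 (66.7%) were called higher and 5 (23.8%) lower, and the lowest level was -6.00. With the penalty at 1 times ln(n) this domain was split. The 14 integrations up to 127347454 averaged 2.40, and the 7 from 127400851 averaged -0.12, with 3 called higher and 2 lower. In the whole domain the pools disagreed: mPGK-F reached 2.88 on 5 integrations, while mPGK-E stood at -0.89 on 2.

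**Figure D2:**
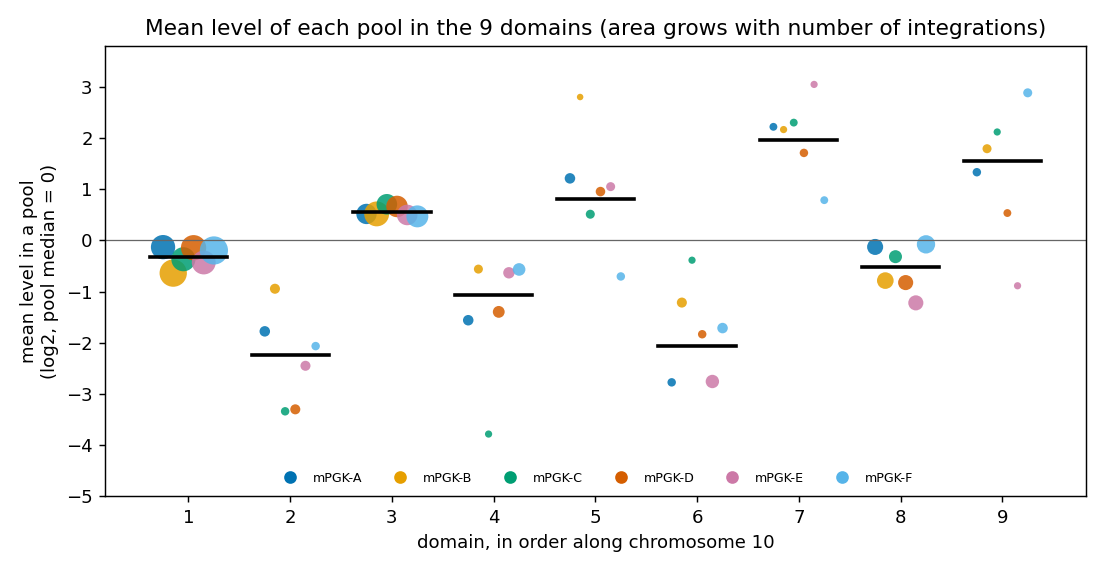
Mean level of each pool (points, log2) in the 9 domains in order along the chromosome, with the area of a point growing with its number of integrations and a black bar at the mean over all integrations of the domain. The 6 pools lie close together in domain 3 (0.47 to 0.71) and far apart in domain 9 (-0.89 to 2.88), where each has at most 5 integrations.

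Because the domains were found from the levels, they were tested in pools that had not been used to find them. For each pool, domains were drawn from the other 5 pools, and the mean level of the left-out pool inside domains above the chromosome mean was compared with that inside domains below it. The left-out pool was higher in the high domains in 6 of 6 cases, by 0.86 in mPGK-A, 1.09 in mPGK-B, 0.97 in mPGK-C, 0.78 in mPGK-D, 1.32 in mPGK-E and 0.38 in mPGK-F. On average the difference was 0.90 ± 0.13 (SE, n = 6 pools), or 1.87-fold. The exact two-sided sign-flip permutation test gave p = 0.031, the smallest possible with 6 pools, and an adjusted p of 0.078, which did not pass 0.05. The number of domains found without a pool varied from 5 without mPGK-A to 11 without mPGK-C.

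**Figure D3:**
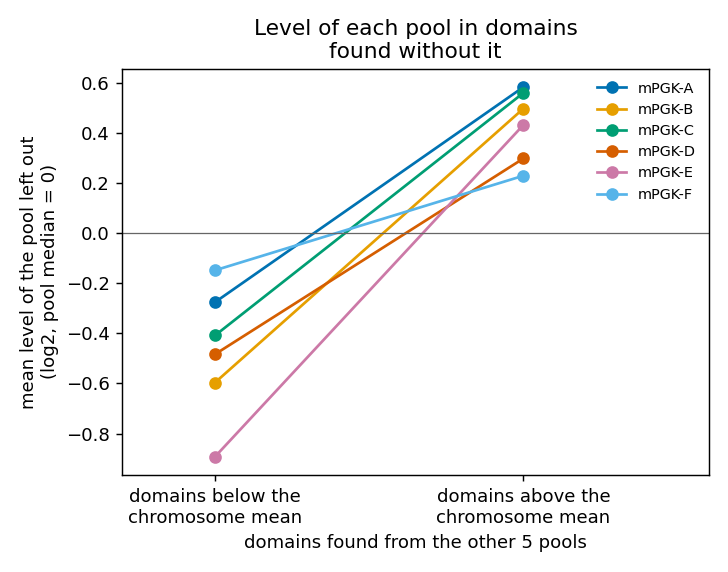
Mean level (log2, y axis) of each pool in domains below and above the chromosome mean (x axis) that had been found from the other 5 pools, with 1 line per pool. All 6 lines rise, by 0.38 in mPGK-F to 1.32 in mPGK-E.

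The edges between domains differed in how sharply they could be placed and in how many pools carried them. An edge is the interval between the last integration of a domain and the first of the next, and these intervals measured 217, 6.27, 181, 24.0, 190, 1075, 160 and 29.6 kb in order along the chromosome. Leaving out each pool in turn, an edge was found again within 500 kb in 5, 3, 3, 1, 4, 4, 4 and 3 of 6 cases. The fall into the first low domain was thus the most stable of the 8, missed only without mPGK-D, while the rise at 94364481 to 94388514 was found again only without mPGK-F.

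At the first edge, the mPGK-D integration at 44793628 had a level of 3.85 and the mPGK-F integration at 44842807 a level of 0.49. Just before these, mPGK-C at 44602325 (-3.13) and mPGK-F at 44607320 (-1.81) were both called lower (edgeR, adjusted p = 4.1e-06 and 3.0e-05). Beyond the edge, 14 integrations in a row from 6 pools were below their pool medians, starting with -3.50 in mPGK-A at 45060161 and -5.27 in mPGK-C at 45457125. On the near side the last 5 integrations averaged -0.19, and on the far side the first 5 averaged -4.30.

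The narrowest edge lay between integrations of a single pool, 6.27 kb apart and both on the plus strand. In mPGK-D the integration at 57231513 had 615 DNA and 11 RNA reads over both cultures (level -5.27), and that at 57237778 had 1514 DNA and 632 RNA reads (0.44). The cultures of the first differed, at -7.20 and -3.41, and both lay below those of the second, at 0.51 and 0.29. The 5 integrations after this edge still averaged -0.36, lower than the mean of the domain they open.

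The edge into the short high domain coincided with a gap of 1075 kb. Before it the mPGK-E integration at 106059788 had 1135 DNA and 48 RNA reads (-3.03), and after it the mPGK-C integration at 107135016 had 4259 DNA and 39581 RNA reads (4.67). The next 3 integrations, from mPGK-D, mPGK-F and mPGK-C between 107250503 and 107297385, were at -1.67, -0.49 and -1.28. Levels above the median then resumed at 107623225 in mPGK-E (2.26), so most high values of this domain lay in its second part. That part also held the lowest integration of the domain, mPGK-A at 107803653 (-2.19, called lower, edgeR, adjusted p = 2.9e-10).

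The last edge was narrow, and levels on its near side were mixed. Within 29.6 kb the level went from -4.17 in mPGK-C at 126337819 (3426 DNA and 68 RNA reads) to 3.94 in mPGK-F at 126367375 (4832 DNA and 28435 RNA reads). The next 2 integrations, in mPGK-D at 126408822 and mPGK-F at 126467991, were also high at 3.33 and 2.70. On the near side, mPGK-B at 125865131 was also called lower (-1.28, edgeR, adjusted p = 0.0043). However, mPGK-F at 125405688 and mPGK-C at 125410468 had levels of 2.95 and 1.56. The last 5 integrations before the edge averaged -0.15, against 1.63 for the first 5 on the far side. The integrations at 126564318 in mPGK-B (-0.96) and 126580365 in mPGK-E (-0.87) were both called lower by the edgeR test, at adjusted p = 0.0071 and 0.0053.

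**Figure D4:**
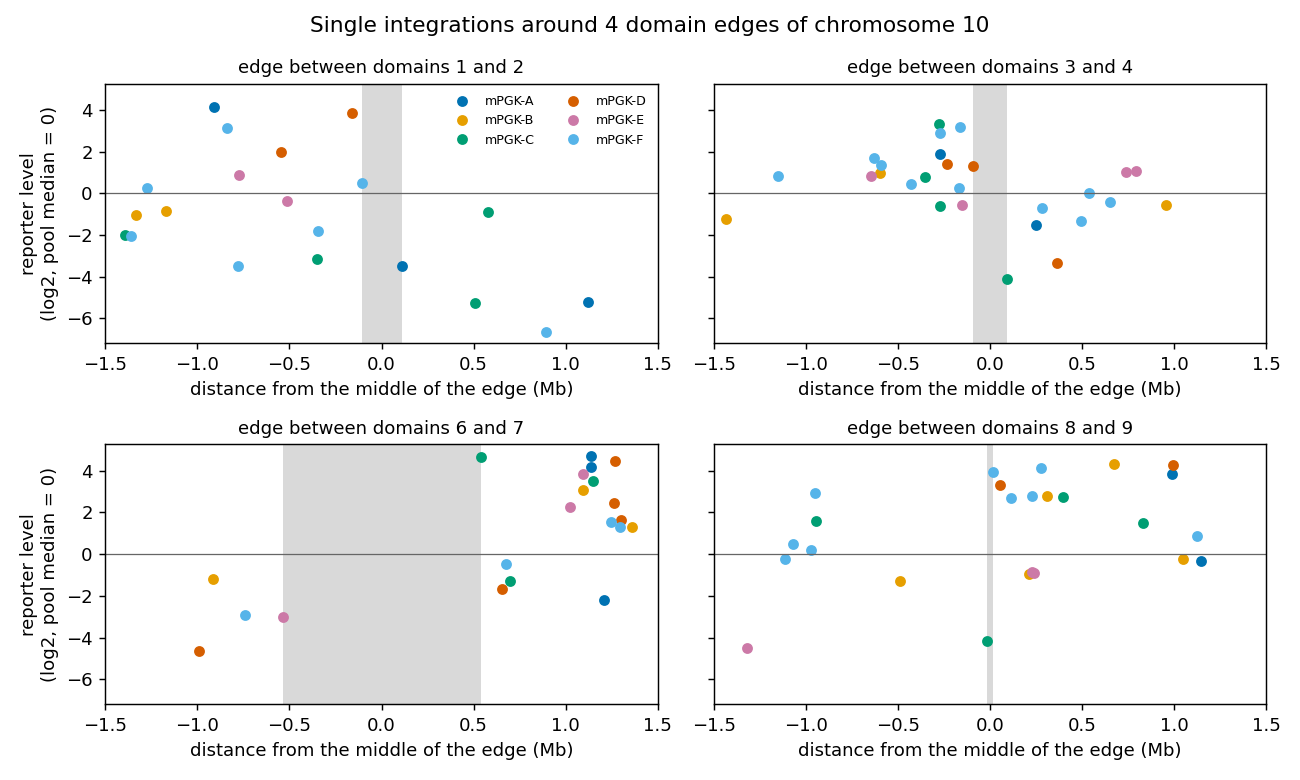
Level of single integrations (log2, y axis) within 1.5 Mb of the middle of 4 domain edges (x axis, Mb), coloured by pool, with the edge interval shaded. At the edge between domains 6 and 7 the shaded interval is a gap of 1075 kb, and at that between domains 8 and 9 integrations 29.6 kb apart differ from -4.17 to 3.94.

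Independent of any segmentation, fixed windows of 2 Mb were compared with the genome by treating the 6 pools as samples (limma, weighted by the number of integrations, Benjamini-Hochberg adjustment over 1106 windows of all chromosomes). Of the 64 windows of chromosome 10, 57 held at least 5 integrations from at least 3 pools. High were 3 (5.26%, against 8.05% of all windows tested) and low were 4 (7.02%, against 9.76%), so chromosome 10 had no larger share of called windows than the genome. Without adjustment, 6 windows were higher and 6 lower at a p under 0.05.

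The highest window ran from 84000001 to 86000000. It held 25 integrations from 5 pools, of which 24 were above their pool median and 21 were called higher, and its fitted difference from the genome was 2.19 ± 0.41 (SE), or 4.57-fold (limma, adjusted p = 0.00076). Relative to the mean of their own pool, the window means were 1.76 in mPGK-A, 2.56 in mPGK-B, 0.82 in mPGK-C, 3.33 in mPGK-E and 2.01 in mPGK-F, all above 0. mPGK-B supplied 10 of its integrations and mPGK-D none.

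The window from 106000001 to 108000000, which contains the short high domain, held 18 integrations and differed by 1.86 ± 0.46 (SE, limma, adjusted p = 0.0054). Its 6 pools were all above 0, from 0.97 in mPGK-F to 2.52 in mPGK-C. The window from 126000001 to 128000000 held 19 integrations and differed by 1.93 ± 0.51 (SE, limma, adjusted p = 0.0087). There 5 of 6 pools were above 0 and mPGK-E, with 2 integrations, was at -0.70. Without mPGK-F this last window no longer passed (1.52, limma, adjusted p = 0.093), nor did it without weights (1.79, adjusted p = 0.087).

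The low windows rested on fewer integrations. The lowest, from 54000001 to 56000000, had 5 integrations from 4 pools, all called lower, and differed by -3.81 ± 0.91 (SE, limma, adjusted p = 0.0044). The window from 102000001 to 104000000 had 5 integrations from 3 pools and differed by -3.12 ± 0.93 (SE, limma, adjusted p = 0.020). Its pool values were -4.96 in mPGK-A, -3.90 in mPGK-D and -2.25 in mPGK-E. The windows from 50000001 (7 integrations, -2.33 ± 0.78 SE, limma, adjusted p = 0.037) and from 90000001 (12 integrations, -2.31 ± 0.75 SE, limma, adjusted p = 0.031) passed less firmly. In the first the pool values ran from -5.02 in mPGK-D to 0.30 in mPGK-F and in the second from -9.87 in mPGK-D to 0.90 in mPGK-B, each of these ends being a single integration. The -9.87 had no RNA reads, so the pseudocount set its value. No RNA was read at 2 of 12 integrations from 90000001 and at 1 of 5 from 54000001. With a pseudocount 10 times larger these windows differed by -1.76 and -3.16 and still passed (limma, adjusted p = 0.022 and 0.0038). Without mPGK-D or without mPGK-E no low window was called: those from 54000001 and 102000001 then held too few integrations to be tested, and those from 50000001 and 90000001 had adjusted p between 0.092 and 0.21 by limma. The window from 54000001 could not be tested without mPGK-C or mPGK-F either, nor that from 102000001 without mPGK-A. Other pools had no integrations in these 2 windows, so leaving them out kept the differences at -3.81 and -3.12. The window from 50000001 also missed the threshold without mPGK-A (limma, adjusted p = 0.092), mPGK-B (0.078) or the first culture (0.072), and that from 90000001 missed it without the first (0.068) or the second culture (0.062). Both also missed it with low DNA counts left out (0.125 and 0.082) and without weights (0.053 and 0.118).

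**Figure D5:**
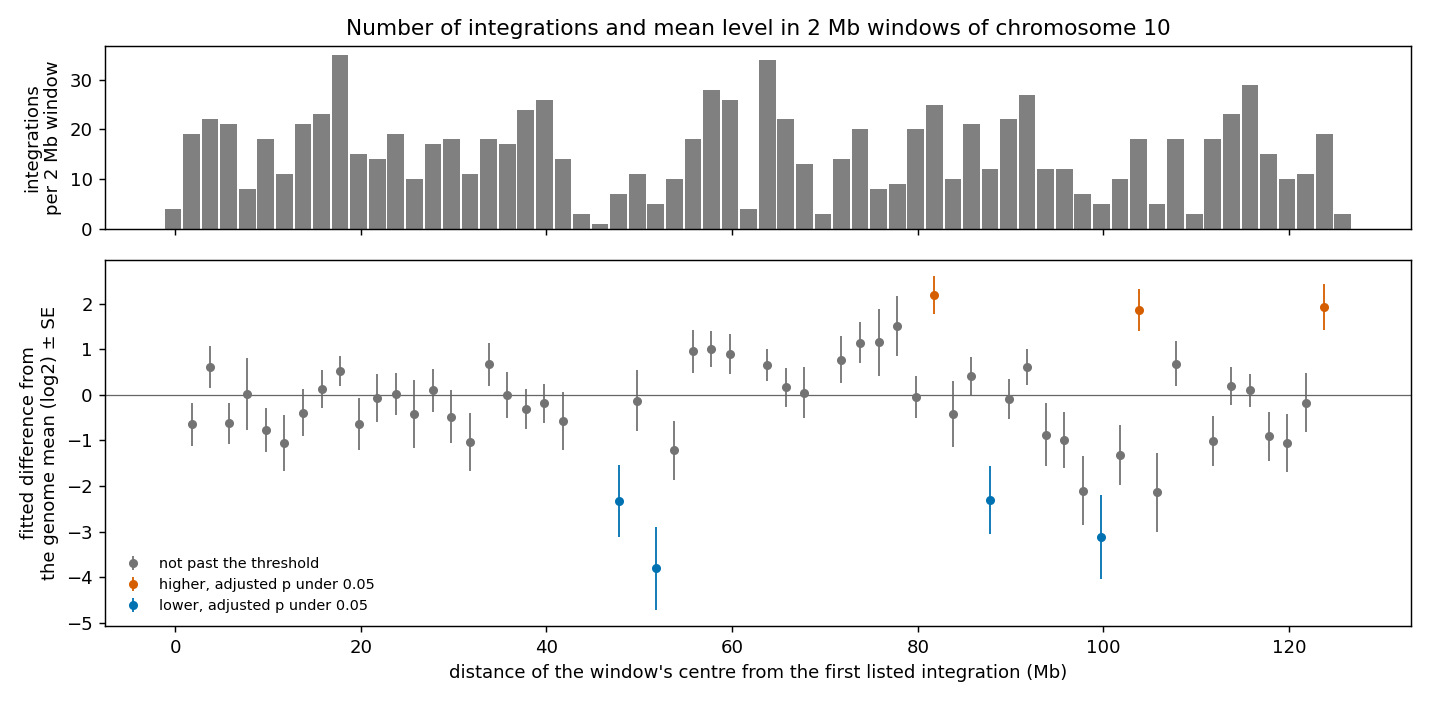
Number of integrations (top) and fitted difference from the genome mean with its SE (bottom, log2) in 2 Mb windows, by distance from the first listed integration (Mb), with windows past an adjusted p of 0.05 coloured. The 3 high windows lie between 1.86 and 2.19, the 4 low ones between -3.81 and -2.31, and the low ones hold 5 to 12 integrations.

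Windows with more integrations tended to have higher levels. Across the 57 windows tested, the number of integrations and the mean level had a Spearman correlation of 0.561 and a Pearson correlation of 0.569. Neighbouring windows share domains and all windows share the same 6 pools, so this is a description of the chromosome. The densest window, with 35 integrations, was not among the high ones (0.51 ± 0.33 SE, limma, adjusted p = 0.29).

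Runs of at least 8 successive integrations on the same side of their pool medians numbered 13, of which 8 were above and 5 below. This was 1.33 per 100 integrations against 2.17 elsewhere, a difference that was not tested. They held 153 of the 976 integrations. All levels of a run lie on the same side by definition, so the direction of its mean and calls was fixed. The calls given below for runs are therefore descriptions. Over all integrations tested, on either side, 36.9% were called higher and 33.7% lower. The longest runs on the other chromosomes counted 24 integrations above and 28 below the median.

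The longest run on chromosome 10 was a low one of 23 integrations over 5.87 Mb, from 100186877 to 106059788, inside the second of the strongly low domains. All 6 pools took part, mPGK-E with 7 integrations, its mean was -2.20 and 15 of the 23 were called lower. The second low run, from 45060161 to 51560169, had 14 integrations from 6 pools over 6.50 Mb and a mean of -3.31, with 11 called lower. A pair of low runs of 10 lay near each other in the first domain, from 12835177 to 14112731 (mean -1.83, 8 called lower) and from 14460150 to 17188986 (mean -2.11, 7 called lower). The fifth low run, of 9 integrations from 82447652 to 83223222 (mean -1.29), lay inside the long high domain from 57237778 to 88349891.

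The high run with the most integrations, 15 from 5 pools, covered 743 kb from 83864743 to 84607946, with a mean of 1.82 and 12 called higher. Another of 14, from 84610164 to 86174940, had a mean of 2.27 and 12 called higher. A single mPGK-C integration on the minus strand at 84608784, with 43 and 93 RNA reads against 1711 and 1210 DNA reads (level -3.03), separated them. Without it they would form an unbroken high block. A finer segmentation, with the penalty at 1 times ln(n), drew them as a single domain of 30 integrations over 2.31 Mb with a mean of 1.87, 24 called higher and 1 lower.

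The other high runs came from 4 to 6 pools each. That of 12 integrations from 110315858 to 111259537 drew on all 6 pools (mean 1.43, 8 called higher), and those of 10 lay at 80488568 to 82320229 (7 called higher) and 87289693 to 88171157 (7 called higher, with 5 of 10 integrations from mPGK-F). The run from 5953507 to 6235767 had 8 integrations, of which mPGK-C gave 4 (mean 2.06), and that from 42193749 to 42568767 had 9 from 5 pools (mean 1.23). These last, which are not among the 5 longest, were added after their values were seen.

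The most compact run, singled out after its values were seen, had 9 integrations from 5 pools within 156 kb, from 66385864 to 66541739. Its mean was 2.69, or 6.44-fold above the pool medians, and 8 were called higher. At its centre, integrations of mPGK-B at 66473184 and mPGK-D at 66473329 reached 4.43 and 4.55. In mPGK-B the RNA reads were 3090 and 2579 against 440 and 288 DNA reads, and in mPGK-D they were 15734 and 18755 against 2976 and 1904. Low integrations flanked it closely: mPGK-E at 66165490 had -3.08, and mPGK-D at 66582567 had -2.69, with 42 and 22 RNA reads against 409 and 1024 DNA reads.

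Beyond this high cluster, the finer segmentation drew a low stretch and then another high one. From 66582567 to 67503837, 14 integrations from 6 pools averaged -1.70, with 9 called lower and 2 higher. From 67536960 to 67736631, within 200 kb, 9 integrations from 6 pools averaged 2.27, with 8 called higher and none lower. The third domain, drawn as a single moderately high stretch of 31.1 Mb, thus held short high clusters with low integrations between them.

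Stretches of at least 1 Mb without any integration numbered 8, and together they covered 10.8 Mb or 8.67% of the span, against 15.7% on the other chromosomes. Per 100 Mb there were 6.40 such gaps, against 9.67 elsewhere. The widest, from 47130400 to 49505422, measured 2.38 Mb and lay in the first low domain, followed after a lone mPGK-B integration by another of 1.10 Mb. The next were 1.46 Mb (112186682 to 113646245), 1.28 Mb (123323981 to 124605346), 1.27 Mb (78056608 to 79324627) and 1.19 Mb (53878272 to 55069191). Of the 5 widest gaps, 2 lay in the low domain from 45060161 to 57231513, 2 in the eighth domain and 1 in the third.

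Integrations beside gaps were mostly low. Of the 15 that border the 8 gaps, 13 lay below their pool median and 11 were called lower by edgeR (against 33.7% of all integrations tested), and their median was -2.24 against 0.15 for the other 961. The single one called higher was the mPGK-C integration at 107135016. By pool, the integrations beside gaps averaged -2.10 relative to the others of the same pool in mPGK-B, 0.91 in mPGK-C, -1.96 in mPGK-D, -2.42 in mPGK-E and -1.80 in mPGK-F, and mPGK-A had none. The average was -1.47 ± 0.60 (SE, n = 5 pools), below 0 in 4 of 5. With all integrations of mPGK-F left out and the gaps drawn anew, it was -0.86 over 4 pools (exact sign-flip permutation test, p = 0.5). In all 5 pools the exact two-sided sign-flip permutation test gave p = 0.125 (adjusted p = 0.21), and with 5 pools it could not go below 0.0625.

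Very near neighbours were alike in some pairs and opposite in others. Of 100 pairs of neighbouring integrations within 5 kb of each other, 45 were called in the same direction and 20 in opposite directions, and the median difference was 1.40 on the log2 scale. Over all integrations tested, 36.9% were called higher and 33.7% lower. Whether the pair counts depart from what these shares alone would give was not tested. In 32 pairs the difference was under 1, and in 14 it exceeded 4. The 3 pairs that differed most are given with their barcodes, since in each case the sites are too close to be told apart on the scale of the domains.
mPGK-B at 21711853, plus strand: aactagtagaggcaaa
mPGK-F at 21715184, plus strand: accccggcaaagaata
mPGK-C at 62605834, minus strand: cttaggccactcttgt
mPGK-D at 62606560, plus strand: atatgccactccggag
mPGK-F at 62346709, minus strand: aggataagtgttatgg
mPGK-D at 62347582, plus strand: ctgaccgataagcctt

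The first pair, 3331 bases apart and on the same strand, differed 576-fold. The mPGK-B integration had 3018 and 3634 RNA reads against 1176 and 884 DNA reads (level 3.14), and the mPGK-F integration had 7 and 4 RNA reads against 1168 and 844 DNA reads (-6.03). Both cultures of each integration lay on the same side.

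In the second pair, 726 bases apart on opposite strands, the mPGK-C integration had 0 and 22 RNA reads against 589 and 544 DNA reads (-5.93). Its mPGK-D neighbour had 1251 and 1355 RNA reads against 1009 and 637 DNA reads (2.40). Cultures of the low member differed, but both stood below those of the high one, at -8.81 and -3.08 against 2.00 and 2.72.

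The third pair was 873 bases apart, also on opposite strands, with levels of -3.81 in mPGK-F and 2.81 in mPGK-D, a 98.9-fold difference. The barcode of its mPGK-F member was also listed in mPGK-D, at 77859018 of chromosome 10, with a level of 1.12. All 3 pairs joined integrations of different pools, so within a pair the pool differed along with the site and the clone, and these cannot be told apart.

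The likeness of integrations from different pools was weak at short distances and near 0 beyond 500 kb. Over 86 pairs within 5 kb the Pearson correlation of levels was 0.235, over 169 pairs at 5 to 20 kb it was 0.240, and over 810 pairs at 20 to 100 kb it was 0.156. It was 0.101 over 3292 pairs at 100 to 500 kb and 0.015 over 9751 pairs at 0.5 to 2 Mb. On the other chromosomes the corresponding values were 0.447, 0.366, 0.252, 0.140 and 0.080. An integration enters many pairs, so these correlations are descriptions across pairs, and the difference between chromosome 10 and the others was not tested.

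The same barcode letters were sometimes listed in several pools at different sites, which allows the level of a barcode to be compared between sites. On chromosome 10 this held for 52 barcodes at 56 integrations, giving 54 pairs of sites. The levels of the paired sites had a Pearson correlation of 0.02 and a Spearman correlation of 0.03 over the 54 pairs, a median difference of 2.09, and 13 pairs were called in opposite directions. For scale, 36.9% of all integrations tested were called higher and 33.7% lower. The pair that differed most shared the barcode cgggagaggactgcga. In mPGK-E, at 6451861 of chromosome 10, it had 15514 and 12177 RNA reads against 4686 and 4530 DNA reads (level 3.12). In mPGK-F, at 15448599 of chromosome 2, it had 11 and 14 RNA reads against 1937 and 2143 DNA reads (-5.91), a difference of 9.03 on the log2 scale.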

How the data were processed

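Reads of reporter barcodes in RNA and in genomic DNA were counted by the authors for 2 cultures of each of 6 pools, and the deposited table gives raw counts per barcode with its pool, chromosome, position and strand. The positions are other values listed by the authors, in mm9 per the submitters' processing notes, which also name Bowtie2 2.0. Barcodes were amplified in 2 PCRs per culture, per the labels' protocols, giving 72 libraries in 18 groups of 4. Not given in the sources used here are how the counts of the PCRs were combined, which barcodes were kept and whether positions start at 0 or 1. Totals are sums over listed barcodes.

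Levels used a pseudocount of 0.5 RNA reads. For each pool, edgeR 4.0.16 (R 4.3.3) fitted RNA against DNA counts after filterByExpr and TMM with its quasi-likelihood test, and log2 ratios were then centred on the median of the pool, which lay between -0.27 and -0.23. DESeq2 1.42.0 was run beside it. Windows were fitted with limma 3.58.1. Comparisons over pools used all 64 sign flips and were adjusted within a family of 5. Domains held at least 5 integrations. Other values came from Python 3.11.15, numpy 2.4.6, scipy 1.17.1 and pandas 2.3.3. Scripts were tested on simulated data.

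RNA and DNA with the same replicate number came from the same culture, per the labels, so the numbers pair them. Their deviations had correlations between -0.0021 and 0.0575 in the pools. Cultures are technical replicates and p-values from edgeR cover their spread only.

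The members, lists and tests were chosen with earlier results of these data known. Named are all windows past the threshold, all domains, the 5 longest runs in each direction (the 3 other high runs were added after their values were seen), the 5 widest gaps, the 5 highest and 5 lowest integrations and the 3 pairs within 5 kb that differed most. Alternatives tried were leaving out low DNA counts, a culture, a pool or barcodes of several pools (the last chosen after seeing the data), a pseudocount 10 times larger, ranks, other windows, penalties and widths, and a replicate block.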

Additional observations from a re-analysis of the deposited data

Results flagged for a closer look

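Among 26 sets of pool values on chromosome 10 that were screened, 2 held a pool far from the others. Chance alone gives about 1 in 20 if all pools have equal spread, so this was no clear excess. Pool values rest on unequal numbers of integrations, so that rate is only a rough guide. The first of the 2 was the difference between integrations beside gaps and the rest in mPGK-C, at 0.91 where the nearest other pool, mPGK-F, stood at -1.80 and the lowest at -2.42. mPGK-C had 3 integrations beside gaps, and the highest of them was that at 107135016 with a level of 4.67. The second was the mean of mPGK-C in the domain from 88530978 to 94364481, at -3.78 where the nearest other pool, mPGK-A, stood at -1.56. It rested on 2 integrations, at -4.11 and -3.46.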

How the results depend on the processing

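Of the values for single windows, domains and integrations under the alternatives, 218 were kept, 15 no longer passed and none changed sign. Those no longer passing were the windows from 50000001, 90000001 and 126000001. Windows were kept if their direction and side of the threshold stayed. Domain means were kept within the SD of their pool means, and integrations within the SD between their cultures, without a threshold. With a culture left out this was nearly certain for integrations. That at 45845218 counted as kept although it went from -6.63 to -3.90 without the first culture. Of the values for whole comparisons, 135 kept their direction and side of the threshold (counts: stayed within 1.5 times), 17 counts changed by more and 8 values changed sign. Both tallies include a setting that could change nothing: using a barcode and position of several pools once removed no integration. The second tally also includes dropping filterByExpr, which had removed none, so the calls stayed at 368 higher and 337 lower. Beside gaps the difference was -2.06 to -0.86 without a pool, lowest without mPGK-C and nearest 0 without mPGK-F. For pools left out of the domains it was 0.73 to 1.00 without a pool, and as normal scores of ranks, another scale, 0.45. Calls with a replicate block were 364 higher and 333 lower and with DESeq2 369 and 332. Leaving out a culture was not run for these calls, since no residual degrees of freedom would remain. High windows numbered 5 with windows shifted by 1 Mb. Low windows numbered 2 without low DNA counts, with 5 Mb windows or with shifted windows, 1 with 1 Mb windows, and 1 where windows needed 10 integrations. They were 2 to 4 without a culture (2 without the first) and 0 to 3 without a pool (0 without mPGK-D or mPGK-E). The level against other chromosomes ranged from -0.025 to 0.086 without a pool and was below 0 without mPGK-A, mPGK-C or mPGK-F. The strand difference was 0.020 without low DNA counts, -0.068 to 0.054 without a culture and -0.11 to 0.15 without a pool. Domains numbered 35 and 5 with penalties of 1 and 3 times ln(n), 7 to 13 without a culture and 5 to 11 without a pool (5 without mPGK-A). Runs of at least 6 numbered 36. Gaps numbered 52 at 500 kb, 1 at 2 Mb, and 10 to 14 without a pool (14 without mPGK-A, 13 without mPGK-E). Apart from settings that hold fewer integrations or other widths by construction, the cause was not tested. Few DNA reads limit how low a level can be read.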
